A study of Mus musculus with 12 samples.

Results

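Sterol and fatty acid synthesis genes were followed through 4 groups of mouse neural cells, as 34 genes of 45706 in the deposited count table. They comprise 18 sterol synthesis genes, 5 genes of sterol regulation and transport, 8 genes of fatty acid synthesis and 3 genes switched on by liver X receptors (LXR). The genes were chosen by their pathway after sterol genes had been seen higher in the Sox1posGP than in the Baseline libraries, so this comparison was selected on and is given as a description, with no test, and other comparisons that reuse Sox1posGP or Baseline libraries are not independent of it. All 34 were among the 17003 genes with enough counts to be tested, Abcg1 only through the NSC and NR libraries, where it is high. RNA-seq was performed on cells of mouse embryonic stem cell origin, listed as C57BL/6, that carry 1 Sox1 allele with GFP knocked in. Each group holds 3 biological samples, made independently on different days. The study asked what follows when the silent Sox1 gene is switched on in neural progenitor cells (NPCs) by dCas9-VP64, an activator without nuclease activity that guide RNAs bring to a promoter.

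Baseline libraries come from Sox1-negative glial progenitors and are listed as unsorted, although the text of the study speaks of sorting cells with and without induction, so their sort status is in doubt. Whether they carried a control guide RNA is not stated. Sox1posGP libraries come from Sox1-positive glial progenitors that received guide RNAs against the Sox1 promoter and were sorted for GFP. Both groups derive from clonal NPC lines that stably express dCas9-VP64 after lentiviral delivery and blasticidin selection and that grow with EGF and bFGF, and the labels do not tie a library to a clone. NSC libraries come from neuroepithelial cells at an early stage of neural induction of embryonic stem cells, unsorted, and NR libraries from neural rosette cells sorted for GFP. Guide RNAs and Sox1 level therefore cannot be told apart between Sox1posGP and Baseline, nor can sorting if Baseline was unsorted, and between NR and NSC sorting and stage cannot be told apart. In such bulk samples, fewer cells of a type and less RNA per cell cannot be told apart either. Total counts were 18351483, 7434718 and 4939268 for Baseline 1 to 3, 3407066, 6315574 and 5875864 for Sox1posGP, 43095688, 29046205 and 31298912 for NSC and 16707006, 30291431 and 34594885 for NR. Every total of the NSC group lay above every total of the Baseline and Sox1posGP groups. Values are counts scaled to the size of each library (CPM), intervals and floors cover counting error only, and a change is called at an adjusted p under 0.1.

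Sox1, the targeted gene, was read first in every library. It stood at 4.83, 6.00 and 5.43 CPM in the Baseline libraries and 20.3, 20.9 and 21.7 CPM in the Sox1posGP libraries. Sox1 measured 48.6, 64.9 and 51.8 CPM in the NSC libraries and 4.62, 20.001 and 19.2 CPM in the NR libraries. The Sox1posGP values lay above all Baseline values, as their label has it, whereas the GFP-sorted NR libraries lay below the unsorted NSC libraries and NR 1 was at the Baseline level. For this reason the names are used here for the libraries labelled NR and NSC. Markers of other cell types were summed per library (8 lists, 67 genes). The 7 pluripotency genes summed to 2741, 1427 and 2069 CPM in the libraries labelled NR, most of it Dppa5a, against 157, 54.8 and 139.8 CPM in NSC, 34.7, 40.9 and 45.5 CPM in Baseline and 13.6, 14.1 and 15.3 CPM in Sox1posGP. In Baseline and Sox1posGP most abundant was Klf4, with means of 33.5 and 5.79 CPM. In Sox1posGP against Baseline 5 of the 7 genes had positive log2 fold changes. Of the 7, 2 lay all above (25.7% of all genes), 1 all below (27.1% of all genes) and 4 overlapped. Pou5f1 had 6, 2 and 0 counts in Baseline and 1, 1 and 3 in Sox1posGP, and Tdgf1 3, 2 and 0 and 1, 4 and 2. These 2 genes had enough counts to be tested only through the NSC and NR libraries. The 8 mesenchyme and neural crest genes, led by Col1a1 and Col3a1, summed to 7534, 1432 and 5044 CPM in NR and 3430.0, 957 and 3373 CPM in NSC. In Baseline and Sox1posGP those 8 genes, with Twist1 the most abundant by group mean, summed to 44.0, 47.6 and 42.6 CPM and 56.5, 61.9 and 68.9 CPM. NR 2 and NSC 2 held the least of both lists within their groups. The 10 oligodendrocyte lineage genes summed to 2478, 2605 and 2489 CPM in Baseline, 1804, 1789 and 1669.7 CPM in Sox1posGP, 104, 86.6 and 103 CPM in NSC and 71.4, 75.7 and 71.2 CPM in NR. Olig1 (mean 1757 CPM) and Olig2 (684 CPM) made up most of the sum in Baseline, and Sox10 had no count and Mag and Mog were below 1 CPM in Baseline and Sox1posGP. By group mean, Sox10, Mag and Mog were below 1 CPM in NSC and NR too. Other genes of this list went the other way from Olig1 and Olig2: Mbp averaged 0.394 CPM in Baseline against 22.8 in NSC and 18.4 in NR, and Cspg4 0.222 against 5.26 and 3.87 CPM. Of the 7 tested, 3 were higher and 3 lower in NSC than in Baseline, and 3 and 3 in NR. Mbp had 7, 1 and 3 counts in Baseline and 1, 0 and 0 in Sox1posGP, and Cspg4 3, 2 and 1 and 0, 3 and 1. Both had enough counts to be tested only through the NSC and NR libraries, where they are high, so this tally is a description. The 7 astrocyte genes, led by Slc1a3 in the progenitors, summed to 3540.4, 3338 and 3227 CPM in Baseline, 1669.6, 1696 and 1609.8 CPM in Sox1posGP, 311, 349 and 294 CPM in NSC and 209, 267 and 204 CPM in NR, while Gja1 was the most abundant in NSC and NR, with Aqp4 below 1 CPM in Baseline and Sox1posGP and Gfap and S100b below 1 CPM in NSC and NR. In Sox1posGP against Baseline, 2 of the 7 lay all below (27.1% of all genes did), 5 overlapped and 4 had positive log2 fold changes. In NSC 2 were higher and 4 lower than in Baseline, where 44.4% and 33.7% of all genes were, and in NR 2 and 5. Gja1 and Aqp4 were higher, and Aqp4 had enough counts to be tested only through the NSC and NR libraries.

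The 8 neural progenitor genes summed to 1996, 1889 and 1919 CPM in Baseline, 1637, 1572 and 1576 CPM in Sox1posGP, 2735, 2509 and 2631 CPM in NSC and 867, 1484 and 1355 CPM in NR, with Fabp7 the most abundant in Baseline and Vim in the other groups. Members went both ways in Sox1posGP against Baseline. Of the 8, 3 lay all above (25.7% of all genes), as Nes did. Another 3 lay all below (27.1% of all genes), as Fabp7 and Sox2 did, and 2 overlapped. In NSC 6 were higher and 2 lower than in Baseline, and in NR 3 and 5. Over all genes, 44.4% were higher and 33.7% lower in NSC, and 45.6% and 34.1% in NR. Neuron genes, 9 in all, summed to 504, 502 and 529.7 CPM in Baseline, 449.6, 449.7 and 436 CPM in Sox1posGP, 748, 612 and 771 CPM in NSC and 343, 430.0 and 519 CPM in NR. Most of the neuron sum in Baseline and Sox1posGP was Map2 (means of 464 and 402 CPM), which averaged 89.9 CPM in NSC and 37.9 CPM in NR. Of the 9 neuron genes, 6 were higher and 2 lower in NSC and in NR than in Baseline, as with Tubb3, at 5.37 CPM in Baseline, 253 in NSC and 137 in NR, and Snap25 was below 1 CPM in Baseline and Sox1posGP. Snap25 (4, 0 and 2 counts in Baseline, 1, 3 and 2 in Sox1posGP) is among these 6. It had enough counts to be tested only through the NSC and NR libraries, where it is high. The 6 endoderm genes stayed low, at 21.5, 27.8 and 20.7 CPM in Baseline, 28.1, 36.3 and 33.5 CPM in Sox1posGP, 33.96, 51.8 and 37.0 CPM in NSC and 54.8, 52.8 and 53.5 CPM in NR, with Afp and Ttr at 0 counts in both progenitor groups. By group mean they were led by Gata4 in the progenitors and Foxa2 in NSC and NR, although Gata4 led in NR 1 and NR 3. The 12 cell cycle genes, which dividing cells of every type express, summed to 3193, 2934 and 2771 CPM in Baseline, 3325, 3392 and 3147 CPM in Sox1posGP, 4476, 4554 and 4551 CPM in NSC and 5442, 4772 and 4817 CPM in NR. Mitochondrial genes took 1.29, 1.17 and 1.27% of counts in Baseline, 1.60, 1.56 and 1.67% in Sox1posGP, 0.429, 0.555 and 0.464% in NSC and 0.515, 0.546 and 0.554% in NR. The marker lists, the mitochondrial share and the depth thus differ between the same groups as the sterol and fatty acid genes do, and their part in the results was not tested.

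**Figure D1:**
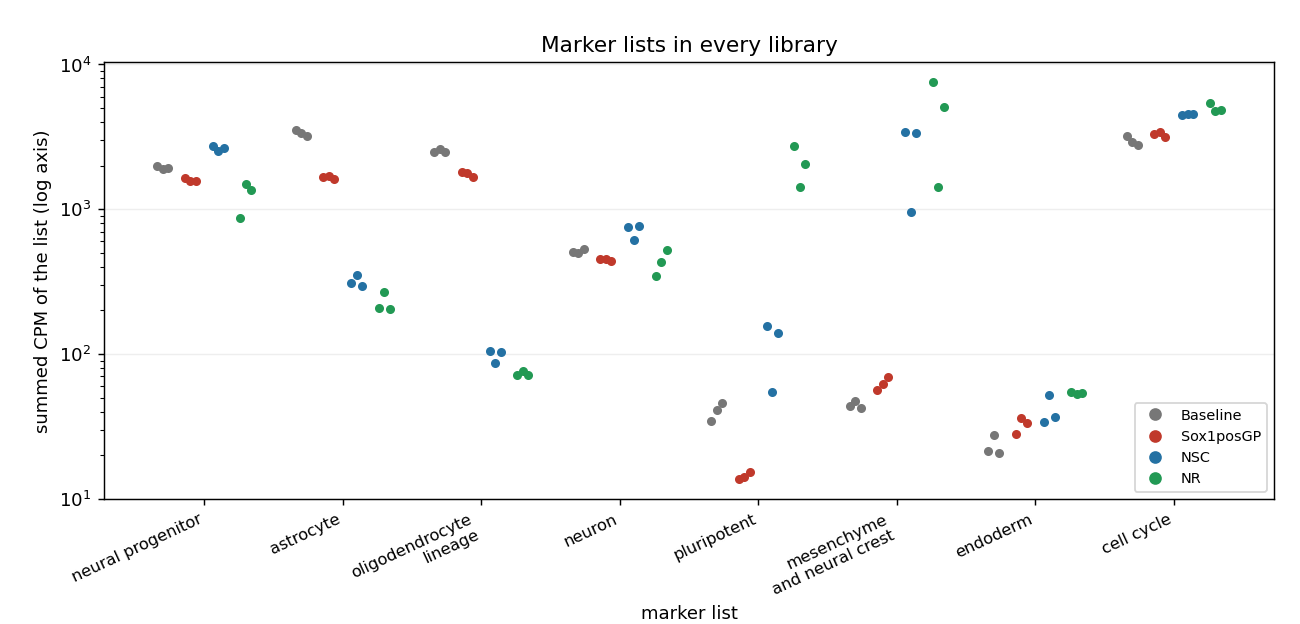
Summed CPM of each marker list (log axis) in every library, coloured by group, 1 point per library. The pluripotency list lies above 1400 CPM in all NR libraries and below 160 CPM in all others. The sum of the oligodendrocyte lineage list, most of it Olig1 and Olig2 in Baseline and Sox1posGP, is higher in those libraries than in NSC and NR, and the neuron sum is mostly Map2 in Baseline and Sox1posGP.

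Cholesterol is built from acetyl-CoA through the mevalonate pathway, squalene and a long series of sterol intermediates, while fatty acids are built from the same acetyl-CoA by carboxylation, chain extension and desaturation. Both arms are controlled by SREBP transcription factors, which Scap escorts from the endoplasmic reticulum for activation and which Insig proteins hold back when sterols are plentiful. LXR receptors respond to oxidised sterols and raise genes of cholesterol export, and in the brain, which makes its own cholesterol, glial cells are a main source.

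The start-site windows of the members were taken from the RefSeq promoter table of mouse build GRCm38.p6, from 250 bases before to 50 after each start. It matched 26 of 34 members, with 32 windows, and had no entry for Fdps, Fdft1, Sqle, Stard4, Scd1, Scd2, Fads1 and Abcg1. On both strands, the windows were searched for the sterol regulatory element core TCACNCCAC, the NF-Y box CCAAT and the Sp1 box GGGCGG, 3 strings known from promoters under SREBP control. CCAAT was found in 21 of the 32 windows (65.6%) and in 37.4% of all 32851 windows of the table. GGGCGG was found in 25 of the 32 (78.1%) and in 35.7% of all windows. TCACNCCAC was found in 1 window of the 32 (3.12%), that of Hmgcs1, and in 1.24% of all windows. By role, CCAAT was present in 14 of 18 windows of the sterol synthesis genes, 4 of 7 of the regulators, 2 of 5 of the fatty acid genes and 1 of 2 of the LXR targets, and GGGCGG in 15, 6, 2 and 2 windows of these lists. A match describes the letters of a window and shows no binding, and a missing match says only that these letters are not in it. One window of each role is printed in the direction of its gene, with matches in capitals: Hmgcs1 for the sterol genes (chr13:119690101-119690400, plus strand), Insig1 for the regulators (chr5:28071162-28071461, plus strand), Fasn for the fatty acid genes (chr11:120824498-120824797, minus strand) and Mylip for the LXR targets (chr13:45389492-45389791, plus strand). 
Hmgcs1: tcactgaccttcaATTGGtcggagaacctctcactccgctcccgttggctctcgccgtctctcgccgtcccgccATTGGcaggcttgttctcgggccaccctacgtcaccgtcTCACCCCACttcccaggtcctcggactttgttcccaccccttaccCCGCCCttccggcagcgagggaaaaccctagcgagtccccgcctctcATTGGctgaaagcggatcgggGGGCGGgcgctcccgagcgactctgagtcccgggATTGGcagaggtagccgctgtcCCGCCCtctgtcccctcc
Insig1: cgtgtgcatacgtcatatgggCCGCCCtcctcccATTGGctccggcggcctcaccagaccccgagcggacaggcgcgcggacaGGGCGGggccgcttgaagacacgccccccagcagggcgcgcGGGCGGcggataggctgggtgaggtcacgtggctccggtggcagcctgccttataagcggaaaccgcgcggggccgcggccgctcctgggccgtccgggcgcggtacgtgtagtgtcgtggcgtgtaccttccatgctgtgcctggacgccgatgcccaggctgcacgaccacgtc
Fasn: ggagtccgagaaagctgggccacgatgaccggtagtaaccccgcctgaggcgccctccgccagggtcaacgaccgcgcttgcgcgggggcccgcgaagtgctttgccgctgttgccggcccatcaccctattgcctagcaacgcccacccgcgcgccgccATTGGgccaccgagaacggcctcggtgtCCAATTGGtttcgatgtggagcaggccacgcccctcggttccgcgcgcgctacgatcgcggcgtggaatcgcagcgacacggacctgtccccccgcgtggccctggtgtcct
Mylip: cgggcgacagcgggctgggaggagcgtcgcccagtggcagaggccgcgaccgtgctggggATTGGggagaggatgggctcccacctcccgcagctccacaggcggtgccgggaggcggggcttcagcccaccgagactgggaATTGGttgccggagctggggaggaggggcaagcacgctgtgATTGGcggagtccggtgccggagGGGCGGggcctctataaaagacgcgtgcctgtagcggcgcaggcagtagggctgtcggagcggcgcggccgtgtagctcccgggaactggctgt
The Hmgcs1 window holds the sterol regulatory element core with its first base at -137 from the start, between NF-Y boxes at -176 and -45, and it holds 4 NF-Y and 3 Sp1 boxes in all. Insig1 has 1 NF-Y box and 3 Sp1 boxes, Fasn 3 NF-Y boxes at -90, -62 and -59, the latter 2 overlapping on opposite strands, and no Sp1 box, and Mylip 3 NF-Y boxes and 1 Sp1 box.

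Between Sox1posGP and Baseline, the comparison that chose the genes, 28 of 34 members had all Sox1posGP libraries above all Baseline libraries, where 25.7% of all genes tested did. Srebf1, Fads1, Abca1 and Mylip (4 of 34) had all Sox1posGP libraries below, where 27.1% of all genes did, and Scd2 and Abcg1 overlapped. The median log2 fold change was 1.29 over the 34 members and 0.00 over all genes tested. The other comparisons were tested across all 17003 genes with the quasi-likelihood test of edgeR (Benjamini-Hochberg). In NSC against Baseline, 23 members were called higher, where 44.4% of all genes were, and 7 lower, where 33.7% were. In NR against Baseline, 18 members were higher (45.6% of all genes) and 10 lower (34.1% of all genes). In NR against NSC, which shares no library with the comparison that chose the genes, 5 members were higher (30.0% of all genes) and 19 lower (26.6% of all genes). Abcg1 is among these higher calls of NSC and NR, and without it 22, 17 and 4 of 33 members were higher in the 3 comparisons. Sox1posGP stood higher than NSC in 22 members (31.4% of all genes) and lower in 5 (41.8% of all genes), and higher than NR in 27 (32.0% of all genes) and lower in 3 (44.4% of all genes), or lower in 4 and 2 without Abcg1. These comparisons share libraries with one another, and those with Baseline or Sox1posGP share them with the comparison that chose the genes. Median log2 fold changes of the 34 members were 0.49 in NSC and 0.35 in NR against Baseline, -0.30 in NR against NSC, 0.53 in Sox1posGP against NSC and 0.81 against NR, beside 0.20, 0.19, 0.01, -0.18 and -0.19 over all genes tested. With Abcg1 set to its bound in Sox1posGP against NSC and NR, these medians stay as given. The all-gene median in NSC against Baseline moved from 0.20 to 0.32 with scaling by library totals, to 0.07 after thinning to the smallest total and to -0.01 where every library had to hold at least 10 counts, with fewer genes tested. In NR against Baseline it moved from 0.19 to 0.28, 0.07 and 0.01 in the same way. The heat map of members by library shows these values side by side.

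**Figure D2:**
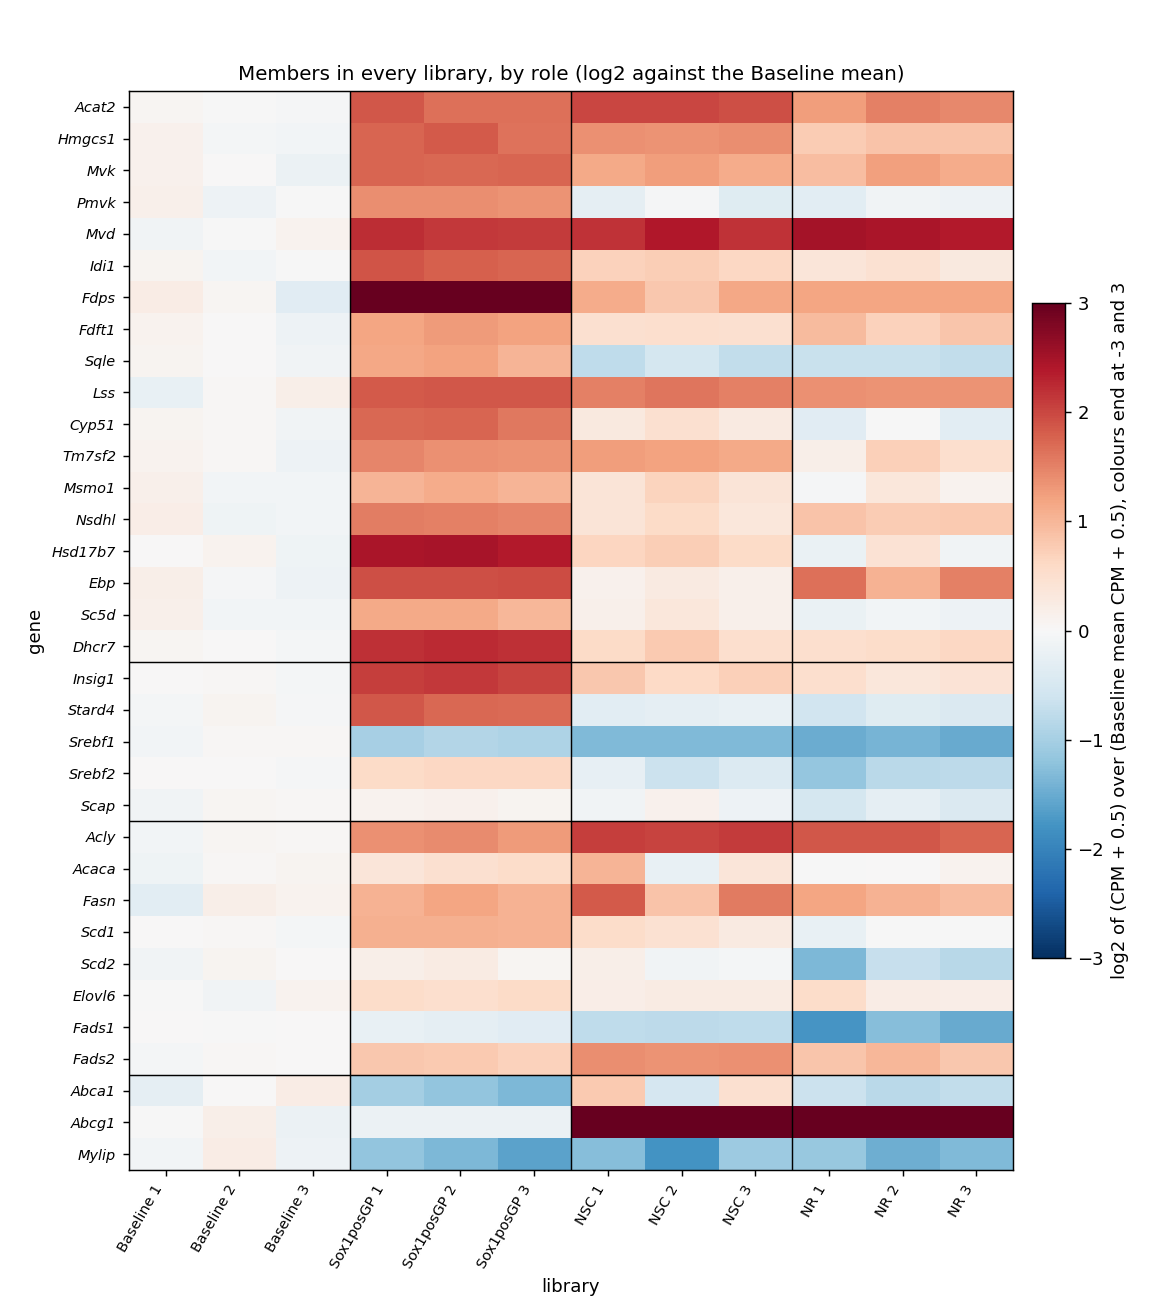
Log2 of CPM over the Baseline mean (0.5 CPM added to both) for the 34 members in all 12 libraries, ordered by role, with red above and blue below the Baseline mean and colours ending at 3 and -3. The sterol synthesis genes are red in all Sox1posGP libraries, Srebf1 is blue in all libraries outside Baseline, and Abcg1 is red in NSC and NR alone.

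The first steps of the sterol arm lead from acetyl-CoA to farnesyl diphosphate. Hmgcs1 stood at 396, 345 and 339.8 CPM in the Baseline libraries and 1213, 1299 and 1122 CPM in the Sox1posGP libraries. Hmgcs1 measured 938, 922 and 945 CPM in the NSC libraries and 612, 652 and 653 CPM in the NR libraries. Hmgcs1 makes HMG-CoA, the precursor of mevalonate, and its 4 groups did not overlap, with Sox1posGP highest and Baseline lowest. Against Baseline its log2 fold change was 1.75 ± 0.09 (SE) in Sox1posGP, 1.37 ± 0.08 in NSC and 0.83 ± 0.08 in NR, the last 2 called with adjusted p = 5.33e-09 and 7.32e-07 by the quasi-likelihood test of edgeR (Benjamini-Hochberg). Acat2, which joins 2 acetyl-CoA, was the 1 sterol gene highest in NSC. Acat2 ran at 92.4, 87.9 and 86.0 CPM in the Baseline libraries and 325, 282 and 282 CPM in the Sox1posGP libraries. Acat2 measured 356, 358 and 342 CPM in the NSC libraries and 211, 253 and 243 CPM in the NR libraries. All 4 groups lay apart, and Acat2 fell in NR against NSC (log2 -0.58 ± 0.08) and was lower in Sox1posGP than in NSC (-0.25 ± 0.08), although the latter was no longer called after thinning to the smallest total (-0.15). Idi1 stood at 45.1, 40.0 and 42.2 CPM in the Baseline libraries and 157, 149 and 143 CPM in the Sox1posGP libraries. Idi1 measured 69.1, 70.7 and 65.9 CPM in the NSC libraries and 54.3, 58.7 and 52.2 CPM in the NR libraries. Idi1, which isomerises isopentenyl diphosphate, was highest in Sox1posGP and lowest in Baseline with no overlap, at a log2 fold change between them of 1.81 ± 0.08. It rose in NSC (0.69 ± 0.08) and NR (0.37 ± 0.08) against Baseline and was higher in Sox1posGP than in either, by 1.12 ± 0.08 over NSC and 1.44 ± 0.08 over NR.

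Fdps had 9.07, 8.09 and 6.05 CPM in the Baseline libraries and 81.4, 82.8 and 82.7 CPM in the Sox1posGP libraries. Fdps measured 17.4, 13.9 and 17.98 CPM in the NSC libraries and 18.3, 18.1 and 18.2 CPM in the NR libraries. Fdps, the synthase of farnesyl diphosphate, had the widest range of the sterol list, 3.41 on the log2 scale from Baseline to Sox1posGP. Its Sox1posGP libraries lay 10.3-fold above Baseline (3.36 ± 0.15), and NSC and NR rose against Baseline by 1.04 ± 0.14 and 1.19 ± 0.14. Fdps shares stretches of 500 bases or more at 95% identity or more with the pseudogenes Gm3571, Gm5873, Gm8163 and Gm43738 of the table, so its counts are uncertain, and Gm3571 itself had 1.17 CPM in Baseline, 9.23 in Sox1posGP, 1.67 in NSC and 2.05 in NR. Acaca, Acat2, Idi1, Elovl6 and Fdft1 share such stretches with Gm5182 (without an entry in the table), Acat3, Gm13502 and Gm35570, Gm11295, and Gm6781, so their counts are uncertain too. Mvk, Pmvk and Mvd, the kinases and the decarboxylase of the mevalonate pathway, stood at 28.5, 69.9 and 25.3 CPM (means, n = 3) in Baseline and 96.4, 183 and 113 CPM in Sox1posGP. Mvd differed from the rest in its order: it was highest in NR at 139.8 ± 5.82 CPM (SD, n = 3), 5.58-fold over Baseline, and lower in Sox1posGP than in NR (log2 -0.31 ± 0.09). In NR against NSC, Mvd was called higher at 0.20 ± 0.08, a call lost without NSC 1 (0.13), NSC 3 (0.13), NR 1 (0.16) or Baseline 2 (0.15), and under 2 alternatives of processing (0.12 to 0.15). Pmvk stood below its Baseline mean in NSC and NR, at 60.1 ± 7.69 and 61.6 ± 4.59 CPM, and its lower call in NSC against Baseline (-0.22 ± 0.10) was lost under 12 of 21 alternatives, among them leaving out NSC 1 (-0.19), NSC 3 (-0.15), Baseline 1 (-0.15), Baseline 3 (-0.22), Sox1posGP 2 (-0.21) or Sox1posGP 3 (-0.21), with the rest under 6 alternatives of processing (-0.11 to -0.18).

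Squalene and its ring closure come next. Fdft1 gave 160.5, 149.7 and 134 CPM in the Baseline libraries and 336, 360.2 and 345 CPM in the Sox1posGP libraries. Fdft1 measured 207, 211 and 208 CPM in the NSC libraries and 287, 241 and 265 CPM in the NR libraries. Fdft1, squalene synthase, kept all groups apart in the order Baseline, NSC, NR and Sox1posGP, and it rose in NR against NSC by 0.34 ± 0.08. Its exons overlap those of Ctsb on the opposite strand over 774 bases, and the strand setting of the counts is not given, so its counts are uncertain. Exons of Hmgcs1, Idi1, Lss, Cyp51, Scap, Srebf1 and Elovl6 also overlap exons of other genes on the opposite strand, over shorter stretches. Sqle stood at 729, 686 and 635 CPM in the Baseline libraries and 1521, 1584 and 1389 CPM in the Sox1posGP libraries. Sqle measured 401, 473 and 407 CPM in the NSC libraries and 429, 428 and 408 CPM in the NR libraries. Sqle, the squalene epoxidase that limits the later pathway, was highest in Sox1posGP, with NSC and NR overlapping each other and both below Baseline. The log2 fold change was 1.13 ± 0.09 in Sox1posGP, -0.68 ± 0.09 in NSC and -0.70 ± 0.09 in NR, the falls in NSC and NR having adjusted p = 9.76e-06 and 6.89e-06 by the quasi-likelihood test of edgeR (Benjamini-Hochberg). Sqle was the 1 sterol gene with all NSC and all NR libraries below all Baseline libraries. Lss read 52.8, 62.9 and 69.5 CPM in the Baseline libraries and 221, 227 and 226 CPM in the Sox1posGP libraries. Lss measured 176, 188 and 178 CPM in the NSC libraries and 161, 158 and 158 CPM in the NR libraries. Lss, which closes lanosterol, lay apart in all groups and was 3.67-fold higher in Sox1posGP, 2.95-fold in NSC and 2.599-fold in NR than in Baseline. For NR against NSC, Lss was called lower at log2 -0.18 ± 0.09 with adjusted p = 0.0938 by edgeR's quasi-likelihood test, but not with the replicate number as a block (-0.18, adjusted p = 0.102), and over its 21 alternatives the adjusted p ran from 0.0295 to 0.245. Leaving out NSC 2 (-0.17), NSC 3 (-0.22), NR 1 (-0.20), NR 2 (-0.18), NR 3 (-0.18), Sox1posGP 2 (-0.19) or Sox1posGP 3 (-0.19) also ended that call, which was lost too under 6 alternatives of processing (-0.13 to -0.20), the block included.

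Lanosterol is then trimmed and reshaped into cholesterol. Cyp51 stood at 310.2, 299 and 271 CPM in the Baseline libraries and 971, 977 and 884 CPM in the Sox1posGP libraries. Cyp51 measured 357, 407 and 353 CPM in the NSC libraries and 232, 289 and 235 CPM in the NR libraries. Cyp51, the lanosterol demethylase, was highest in Sox1posGP, 3.22-fold over Baseline, and its NR and Baseline libraries overlapped. It rose in NSC against Baseline (0.34 ± 0.10) and fell in NR against NSC (-0.56 ± 0.10), while the lower call in NR against Baseline (-0.22 ± 0.10) was lost without NR 1 (-0.20), NR 3 (-0.19) or Baseline 1 (-0.19), and under 6 alternatives of processing (-0.08 to -0.20). Dhcr7 had 76.4, 74.2 and 71.0 CPM in the Baseline libraries and 338, 348 and 339 CPM in the Sox1posGP libraries. Dhcr7 measured 111, 128 and 106 CPM in the NSC libraries and 104, 108 and 114 CPM in the NR libraries. Dhcr7, the last reductase of one branch, was 4.62-fold higher in Sox1posGP than in Baseline, 2.98-fold higher than in NSC and 3.14-fold higher than in NR, with no overlap. NSC and NR overlapped each other and rose against Baseline by 0.63 ± 0.08 and 0.56 ± 0.08. Msmo1 stood at 351, 296 and 296 CPM in the Baseline libraries and 641, 679 and 634 CPM in the Sox1posGP libraries. Msmo1 measured 411, 503 and 408 CPM in the NSC libraries and 308, 397 and 337 CPM in the NR libraries. Msmo1, a sterol methyl oxidase, had the narrowest range of the sterol list (1.06 on the log2 scale), with Sox1posGP above all other libraries and NR overlapping Baseline. Tm7sf2, Nsdhl, Hsd17b7, Ebp and Sc5d, which act between Cyp51 and Dhcr7, also had every Sox1posGP library above every other library. Hsd17b7 showed the largest of these differences, with 51.6 ± 3.92 CPM in Baseline (SD, n = 3), 282 ± 8.61 in Sox1posGP, 81.7 ± 4.91 in NSC and 54.3 ± 13.8 in NR. Ebp rose in NR against NSC by 1.26 ± 0.14, from 18.2 ± 1.03 to 43.5 ± 9.40 CPM, the largest rise of a sterol gene in that comparison, and Nsdhl rose by 0.36 ± 0.09. Sc5d and Tm7sf2 fell in NR against NSC by 0.36 ± 0.09 and 0.72 ± 0.13 on the log2 scale, and 532 bases of Tm7sf2 exons overlap Vps51 on the same strand, which makes its counts uncertain. The higher call of Sc5d in NSC against Baseline (0.21 ± 0.09) was lost without NSC 2 (0.14), NR 1 (0.18), NR 3 (0.19), Baseline 2 (0.16), Baseline 3 (0.18) or Sox1posGP 1 (0.19).

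Levels of different genes were set side by side per kilobase of annotated exon, taken over all transcripts of a gene. This length can exceed that of the transcript expressed, so the order of genes is approximate. In Sox1posGP, Sqle led the sterol list at 270.1 CPM per kb, followed by Hmgcs1 at 264 and Cyp51 at 214 CPM per kb. Baseline had the same leading genes at lower levels, with Sqle at 123, Hmgcs1 at 78.4 and Cyp51 at 66.4 CPM per kb. In NSC the order was Hmgcs1 (204 CPM per kb), Acat2 (138) and Cyp51 (84.4), and in NR it was Hmgcs1 (139), Acat2 (92.6) and Sqle (76.0). Fdps was lowest in Baseline, NSC and NR, at 1.84, 3.90 and 4.32 CPM per kb, and Tm7sf2 in Sox1posGP at 8.34 CPM per kb. The counts of both genes are uncertain, as given above. In Sox1posGP, Sqle and Hmgcs1 were nearly level, and Acat2 stood at 116 CPM per kb, as the line plot of levels along the pathway shows. Summed over the 18 genes, sterol synthesis took 2571, 2359 and 2255 CPM in Baseline, 6892, 7061 and 6482 CPM in Sox1posGP, 3551, 3846 and 3528 CPM in NSC and 2943, 3155 and 3011 CPM in NR. All groups lay apart in this sum, with Sox1posGP highest.

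**Figure D3:**
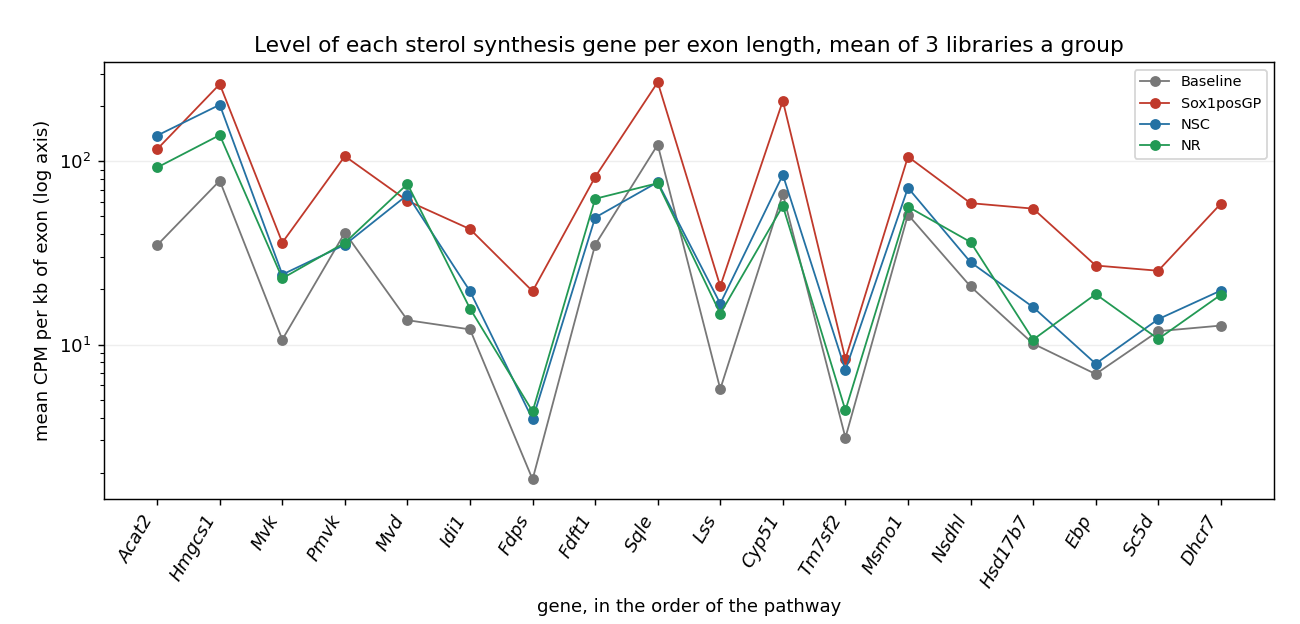
Mean CPM per kb of exon (log axis, 3 libraries a group) of the 18 sterol synthesis genes in pathway order, 1 line per group. The Sox1posGP line lies above the Baseline line at every gene, and the NSC and NR lines lie below Baseline at Sqle.

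The regulators did not all follow the enzymes. Insig1 stood at 133, 134 and 127 CPM in the Baseline libraries and 558, 574 and 535 CPM in the Sox1posGP libraries. Insig1 measured 230.5, 199.7 and 216 CPM in the NSC libraries and 187, 166 and 175 CPM in the NR libraries. Insig1, which retains the Scap and SREBP complex in the endoplasmic reticulum, lay apart in all groups and was 4.23-fold higher in Sox1posGP than in Baseline, 2.58-fold higher than in NSC and 3.15-fold higher than in NR. It rose in NSC (0.72 ± 0.08) and NR (0.43 ± 0.08) against Baseline and fell in NR against NSC (-0.29 ± 0.08). Stard4 stood at 36.3, 40.2 and 37.1 CPM in the Baseline libraries and 139.5, 127 and 124 CPM in the Sox1posGP libraries. Stard4 measured 30.1, 31.4 and 32.3 CPM in the NSC libraries and 25.2, 29.5 and 27.9 CPM in the NR libraries. Stard4, a carrier of cholesterol in the cytosol, was highest in Sox1posGP and had the widest range of this list (2.24 on the log2 scale), and its NSC and NR libraries lay below Baseline. The fall against Baseline was -0.46 ± 0.09 in NR and -0.28 ± 0.09 in NSC, the latter not called with library totals (-0.16) or with no filter on low counts (-0.19). Srebf2 stood at 548, 545 and 527 CPM in the Baseline libraries and 809.8, 830.5 and 828 CPM in the Sox1posGP libraries. Srebf2 measured 452, 343 and 403 CPM in the NSC libraries and 239, 310.2 and 312 CPM in the NR libraries. Srebf2, whose product SREBP-2 acts mainly on sterol genes, was above all other libraries in Sox1posGP at 0.61 ± 0.11 against Baseline, and fell in NSC (-0.43 ± 0.11) and NR (-0.91 ± 0.11). The difference of Sox1posGP from NSC was 1.04 ± 0.11 and from NR 1.52 ± 0.11.

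Srebf1 stood at 495, 533 and 533 CPM in the Baseline libraries and 263, 283 and 273 CPM in the Sox1posGP libraries. Srebf1 measured 207, 207 and 208 CPM in the NSC libraries and 186, 199 and 183 CPM in the NR libraries. Srebf1, whose SREBP-1 products act mainly on fatty acid genes, had the reverse place, with every Baseline library above every other library and Sox1posGP in between. Its log2 fold change against Baseline was -0.93 ± 0.07 in Sox1posGP, -1.33 ± 0.07 in NSC (adjusted p = 1.12e-09) and -1.46 ± 0.07 in NR (adjusted p = 4.6e-10), the last 2 by the quasi-likelihood test of edgeR (Benjamini-Hochberg). Sox1posGP stood above NSC by 0.40 ± 0.07 and above NR by 0.53 ± 0.07. Per kilobase of exon, Srebf1 was above Srebf2 in Baseline, at 92.3 and 75.2 CPM per kb, and below it in the other groups, at 48.4 and 115 in Sox1posGP, 36.8 and 55.6 in NSC and 33.6 and 40.0 in NR. Without the exon length, the Baseline means were 520 CPM for Srebf1 and 540 CPM for Srebf2, so their order in Baseline rests on that length. Scap stood at 107, 120.3 and 119 CPM in the Baseline libraries and 124, 127 and 123 CPM in the Sox1posGP libraries. Scap measured 107, 126 and 105 CPM in the NSC libraries and 80.0, 95.2 and 85.1 CPM in the NR libraries. Scap, the escort of SREBP, had the narrowest range of the list (0.52 on the log2 scale): Sox1posGP lay just above Baseline (0.11 ± 0.09), NSC overlapped both, and NR was below all of them. Scap fell in NR by 0.41 ± 0.09 against Baseline and by 0.37 ± 0.09 against NSC on the log2 scale. Between Sox1posGP and NSC it was not called (0.15 ± 0.09), but was without NSC 2 (0.25) or Baseline 1 (0.19), and under 3 alternatives of processing (0.18 to 0.29).

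**Figure D4:**
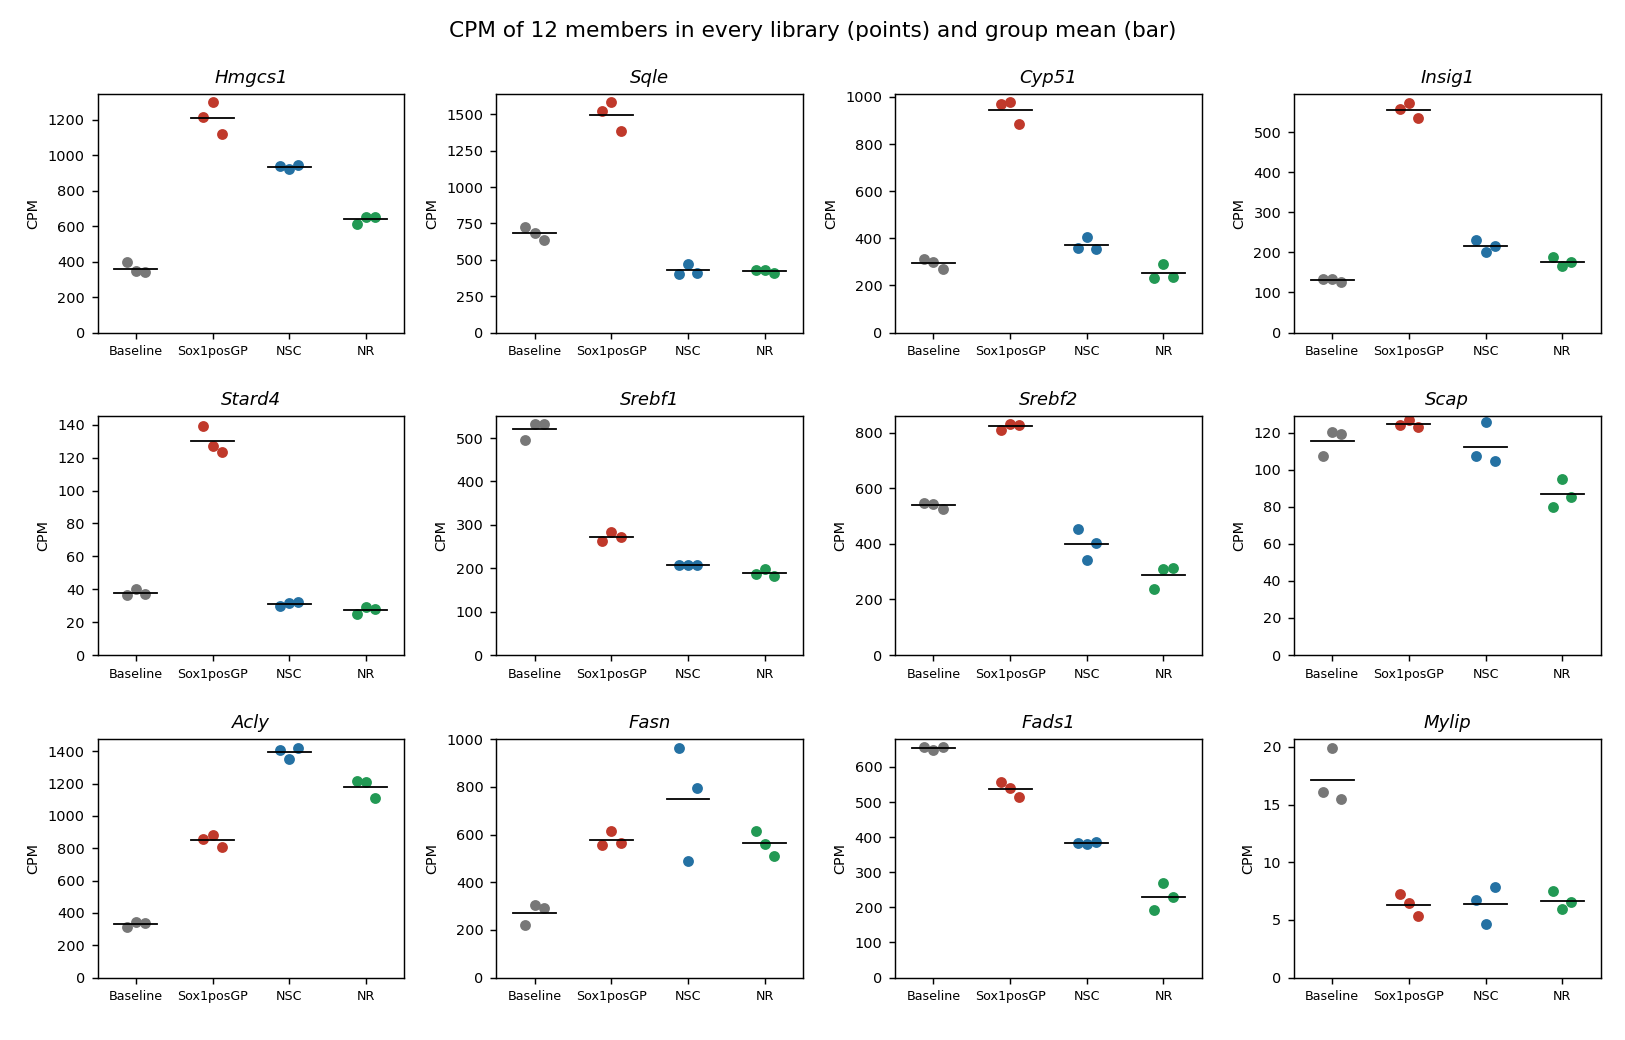
CPM (linear axes from 0) of 12 members in every library, with points for the 3 libraries of each group and a bar for the group mean. Insig1, Stard4 and Srebf2 are highest in Sox1posGP, Srebf1, Fads1 and Mylip in Baseline, and Acly in NSC.

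In the fatty acid arm the groups were ordered in several ways. Acly stood at 314, 344 and 339 CPM in the Baseline libraries and 858, 883 and 811 CPM in the Sox1posGP libraries. Acly measured 1406, 1354 and 1423 CPM in the NSC libraries and 1217, 1208 and 1109 CPM in the NR libraries. Acly, which releases acetyl-CoA from citrate for both arms, had the widest range of the list (2.07 on the log2 scale) and all groups apart, with NSC highest and Baseline lowest. It rose in NSC by 2.07 ± 0.08 and in NR by 1.83 ± 0.08 against Baseline, with adjusted p = 5.79e-11 and 1.55e-10 by the quasi-likelihood test of edgeR (Benjamini-Hochberg). Sox1posGP was 1.36 ± 0.08 above Baseline but below NSC (-0.71 ± 0.08) and NR (-0.47 ± 0.08). Fasn stood at 219, 304 and 291 CPM in the Baseline libraries and 558, 614 and 564 CPM in the Sox1posGP libraries. Fasn measured 965, 487 and 795 CPM in the NSC libraries and 617, 562 and 512 CPM in the NR libraries. Fasn, fatty acid synthase, was lowest in Baseline, while the other 3 groups overlapped and NSC 2 stood far below NSC 1 and NSC 3. It lay 2.14-fold above Baseline in Sox1posGP, and rose against Baseline by a log2 fold change of 1.47 ± 0.20 in NSC and 1.06 ± 0.19 in NR. In NR against NSC, Fasn was called lower (-0.41 ± 0.19), a call lost under 13 of 21 alternatives, among them leaving out NSC 1 (-0.21), NSC 3 (-0.39), NR 2 (-0.41), NR 3 (-0.35), Baseline 3 (-0.42), Sox1posGP 2 (-0.42) or Sox1posGP 3 (-0.42), with the rest under 6 alternatives of processing (-0.35 to -0.46). Sox1posGP against NSC was at the threshold (-0.37 ± 0.19) and was called lower without NSC 2 (-0.59) or NR 2 (-0.38), and under 4 alternatives of processing (-0.38 to -0.46). Acaca stood at 36.4, 41.0 and 42.2 CPM in the Baseline libraries and 51.8, 55.9 and 58.4 CPM in the Sox1posGP libraries. Acaca measured 81.3, 33.9 and 51.5 CPM in the NSC libraries and 39.3, 40.5 and 42.6 CPM in the NR libraries. Acaca, the carboxylase that commits acetyl-CoA to this arm, had the narrowest range of the list (0.47 on the log2 scale), and NSC spanned the values of every other group. Its higher call in NSC against Baseline (0.49 ± 0.22) was lost without NSC 1 (0.11), Baseline 1 (0.41) or Baseline 2 (0.51), and under 1 alternative of processing (0.47), and in NR against NSC (-0.45 ± 0.22) it was called lower without NSC 2 (-0.72) or Baseline 2 (-0.49), and under 2 alternatives of processing (-0.50 to -0.52), but not otherwise. Against NR, Acaca was called higher in Sox1posGP (0.44 ± 0.23), a call lost without NR 1 (0.44), NR 2 (0.43), Baseline 3 (0.43), Sox1posGP 2 (0.43) or Sox1posGP 3 (0.39), and under 5 alternatives of processing (0.37 to 0.45), and against NSC it was called higher only without NSC 1 (0.39).

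The desaturases and the elongase of the list shape the fatty acids that Fasn releases. Scd1 stood at 98.7, 98.8 and 93.9 CPM in the Baseline libraries and 203, 204 and 200.3 CPM in the Sox1posGP libraries. Scd1 measured 142, 133 and 117 CPM in the NSC libraries and 82.6, 97.0 and 95.7 CPM in the NR libraries. Scd1, a stearoyl-CoA desaturase, was above all other libraries in Sox1posGP (1.06 ± 0.09 against Baseline), rose in NSC (0.43 ± 0.09) and overlapped Baseline in NR. Scd2 ran at 1958, 2227 and 2096 CPM in the Baseline libraries and 2377, 2489.6 and 2183 CPM in the Sox1posGP libraries. Scd2 measured 2353, 1941 and 2026 CPM in the NSC libraries and 825, 1287 and 1171 CPM in the NR libraries. Scd2, the related desaturase, was the most abundant of the list per length in Baseline, Sox1posGP and NSC and second to Acly (223 CPM per kb) in NR, at 383 CPM per kb in Baseline, 430.1 in Sox1posGP, 386 in NSC and 200.3 in NR. Baseline, Sox1posGP and NSC overlapped, and NR lay below all of them, at -0.94 ± 0.14 against Baseline and -0.94 ± 0.14 against NSC. Elovl6 stood at 102, 95.1 and 111 CPM in the Baseline libraries and 151, 147 and 155 CPM in the Sox1posGP libraries. Elovl6 measured 117, 122 and 122 CPM in the NSC libraries and 151, 120.0 and 117 CPM in the NR libraries. Elovl6, which lengthens palmitate, was lowest in Baseline and highest in Sox1posGP (0.55 ± 0.10), with NR overlapping Sox1posGP and NSC. It rose in NR (0.33 ± 0.10) and, in a call lost without Baseline 1 (0.21) or Baseline 2 (0.17), in NSC (0.23 ± 0.10) against Baseline. Its higher call in Sox1posGP against NR (0.22 ± 0.10) was lost without NR 2 (0.16), NR 3 (0.20) or Sox1posGP 3 (0.19), and under 3 alternatives of processing (0.15 to 0.22).

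Fads1 stood at 657, 647 and 656 CPM in the Baseline libraries and 557, 541 and 515 CPM in the Sox1posGP libraries. Fads1 measured 384, 379 and 386 CPM in the NSC libraries and 192, 268 and 229 CPM in the NR libraries. Fads1, a desaturase of polyunsaturated fatty acids, was the only member of either synthesis arm with every Baseline library above every other library, and all its groups lay apart. Against Baseline its log2 fold change was -0.28 ± 0.10 in Sox1posGP, -0.77 ± 0.10 in NSC (adjusted p = 8.61e-06) and -1.51 ± 0.10 in NR (adjusted p = 1.16e-08), the last 2 by the quasi-likelihood test of edgeR (Benjamini-Hochberg). Fads2 gave 70.8, 76.6 and 75.1 CPM in the Baseline libraries and 131, 128 and 120.3 CPM in the Sox1posGP libraries. Fads2 measured 195, 189.6 and 191 CPM in the NSC libraries and 133, 149 and 130.4 CPM in the NR libraries. Fads2, its partner in that path, had another order, highest in NSC and lowest in Baseline, with Sox1posGP and NR overlapping. It rose in NSC by 1.37 ± 0.08 and in NR by 0.89 ± 0.08 against Baseline, and Sox1posGP lay below NSC (-0.60 ± 0.08). Summed over the 8 genes, fatty acid synthesis took 3456, 3834 and 3704 CPM in Baseline, 4887, 5062 and 4606 CPM in Sox1posGP, 5644, 4639.9 and 5111 CPM in NSC and 3256, 3731 and 3407 CPM in NR. In this sum Sox1posGP overlapped NSC and NR overlapped Baseline, and Scd2 was the most abundant gene in all libraries except NR 1, where Acly was.

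Set side by side, the arms separated the groups differently. Relative to the Baseline mean, the median log2 difference of the 18 sterol genes was 1.76, 1.74 and 1.65 in the Sox1posGP libraries, 0.62, 0.74 and 0.55 in NSC and 0.63, 0.72 and 0.71 in NR. The median of the 8 fatty acid genes was 0.69, 0.65 and 0.64 in Sox1posGP, 0.79, 0.35 and 0.32 in NSC and 0.27, 0.13 and 0.15 in NR. In the sterol arm every Sox1posGP library lay above every NSC and NR library, whereas in the fatty acid arm NSC 1 lay above all of them. By group, the sterol median was 1.74 in Sox1posGP, 0.65 in NSC and 0.68 in NR against Baseline, and the fatty acid median 0.66, 0.46 and 0.19. The fatty acid median in NR was 0.33 where every library had to hold at least 10 counts, 0.10 without NR 1 and 0.12 without Baseline 2. No test of a difference between the arms was made, since the genes were chosen with these values known. Of the 18 sterol genes, 15 were higher and 2 lower in NSC than in Baseline, where 44.4% and 33.7% of all genes were, and 12 higher and 2 lower in NR, where 45.6% and 34.1% were. Of the 8 fatty acid genes, 6 were higher and 1 lower in NSC than in Baseline, and 4 higher and 2 lower in NR, the latter near the shares over all genes. The counts against NSC and NR reuse the Sox1posGP libraries that chose the genes and are a description. Against NSC, where 31.4% of all genes were higher and 41.8% lower, Sox1posGP was higher in 15 sterol genes and lower in 1, at a median of 0.97, and higher in 3 fatty acid genes and lower in 2, at a median of 0.08 that became -0.06 without NSC 2 and 0.29 without NSC 1. Against NR, where 32.0% of all genes were higher and 44.4% lower, Sox1posGP was higher in 17 sterol genes and lower in 1 (median 0.92), and higher in 5 fatty acid genes and lower in 1 (median 0.33). Between NR and NSC, which share no library with the comparison that chose the genes and where 30.0% of all genes were higher and 26.6% lower, 4 sterol genes were higher and 9 lower (median -0.13), and 6 fatty acid genes were lower and 2 not called (median -0.47). Of the 5 regulators, 3 were lower in NR than in NSC and 2 not called. All 5 had every NR library below every NSC library, as 4524 of the 17003 genes tested did. The regulators not called, Stard4 (-0.18) and Srebf1 (-0.13), were each called lower under 4 alternatives. Sox1posGP had the highest mean in 16 of 18 sterol genes and 3 of 8 fatty acid genes, and NSC in 1 and 4. These orders are drawn in the plot of fold changes against Baseline.

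**Figure D5:**
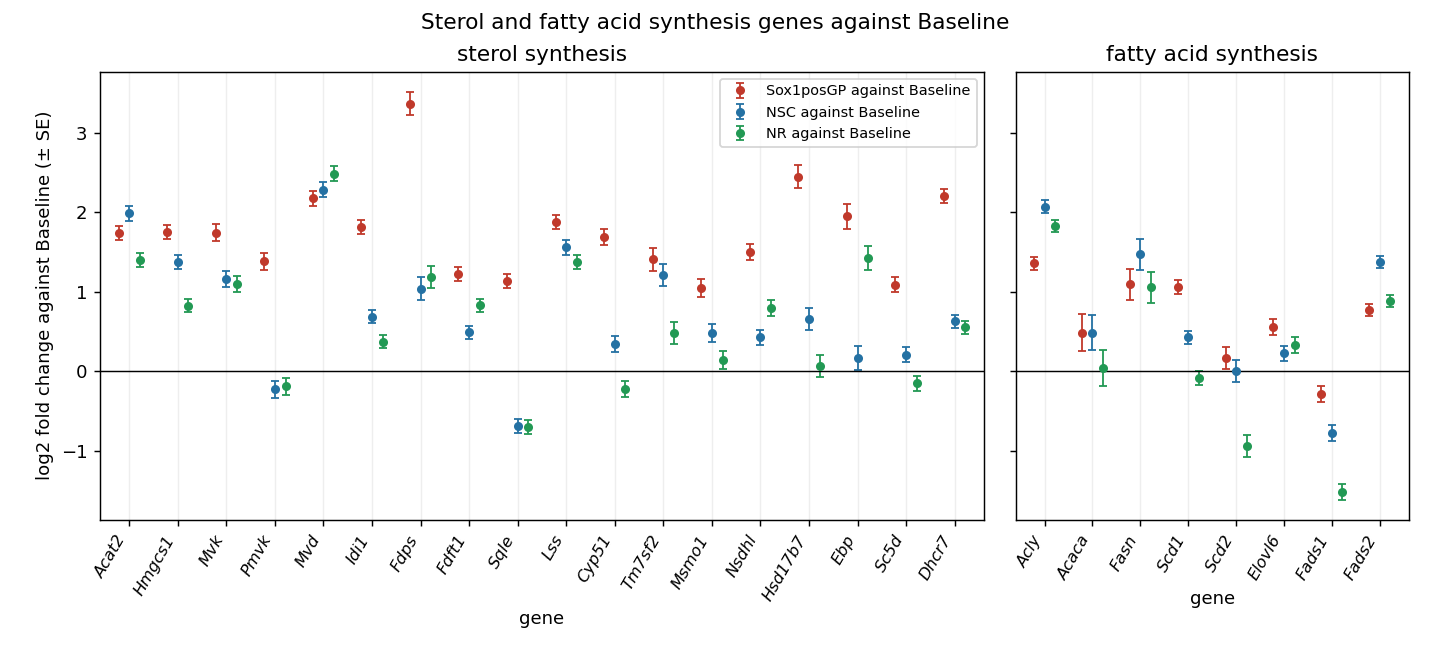
Log2 fold change against Baseline (points, with bars of 1 SE) of the sterol genes (left) and the fatty acid genes (right) in Sox1posGP, NSC and NR. Sox1posGP lies above 1 for all sterol genes and between -0.28 and 1.36 for the fatty acid genes.

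The 3 LXR targets had their highest means in 3 different groups. Mylip had 16.1, 19.951 and 15.4 CPM in the Baseline libraries and 7.24, 6.44 and 5.34 CPM in the Sox1posGP libraries. Mylip measured 6.73, 4.63 and 7.83 CPM in the NSC libraries and 7.51, 5.94 and 6.58 CPM in the NR libraries. Mylip, the ubiquitin ligase that marks lipoprotein receptors for degradation, was above all other libraries in Baseline, and the other groups overlapped. It lay lower by 1.45 ± 0.23 in Sox1posGP and fell by 1.42 ± 0.21 in NSC and 1.37 ± 0.21 in NR on the log2 scale. Abca1 gave 13.5, 16.6 and 19.2 CPM in the Baseline libraries and 7.82, 6.91 and 6.17 CPM in the Sox1posGP libraries. Abca1 measured 28.7, 11.4 and 23.3 CPM in the NSC libraries and 10.4, 9.13 and 9.64 CPM in the NR libraries. Abca1, an exporter of cholesterol, was lowest in Sox1posGP with no overlap, and NSC 2 stood below NSC 1 and NSC 3, so that NSC overlapped Baseline. Sox1posGP lay -1.23 ± 0.31 from Baseline and -1.62 ± 0.30 from NSC, and NR fell against Baseline (-0.74 ± 0.27) and NSC (-1.12 ± 0.26). NSC was not called against Baseline (0.38 ± 0.26), but was called higher without NSC 2 (0.68) and under 1 alternative of processing (0.48), and Sox1posGP was not called against NR (-0.49 ± 0.30) except without NSC 2 (-0.46) and under 2 alternatives of processing (-0.43 to -0.50). Abcg1, a further exporter, had 1, 1 and 0 counts in the Baseline libraries and 0 counts in all Sox1posGP libraries. In NSC it had 265, 136 and 213 counts, or 5.93, 4.70 and 6.49 CPM, and in NR 277, 314 and 506 counts, or 17.1, 10.1 and 14.2 CPM. All NSC and NR libraries lay above all progenitor libraries, and all NR above all NSC libraries. From the pooled counts Abcg1 was 82.8-fold higher in NSC than in Baseline (95% exact interval 22.8 to 685) and 190.2-fold higher in NR (52.5 to 1572). Against a floor of 3 counts per Sox1posGP library it was at least 9.30-fold higher in NSC and at least 22.5-fold higher in NR. It rose in NR against NSC by 1.27 ± 0.23 on the log2 scale. The pluripotency list is also higher in all NR than in all NSC libraries, and its part in this difference was not tested.

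Other genes of these pathways, 69 in 6 lists, were measured beside the members, and 5 of the lists are given with the gene of widest range. Over all genes tested, 44.4% were called higher and 33.7% lower in NSC and 45.6% and 34.1% in NR against Baseline, 30.0% and 26.6% in NR against NSC, 31.4% and 41.8% in Sox1posGP against NSC and 32.0% and 44.4% against NR. Several counts of these lists lie near those shares, and no list was tested against them. Of 9 further sterol and isoprenoid enzymes, 3 higher and 5 lower were called in NSC and 3 higher and 4 lower in NR against Baseline, 2 higher and 5 lower in NR against NSC, and 6 higher and 1 lower in Sox1posGP against NSC and 6 higher and 1 lower against NR. Of 9 genes of SREBP control besides the members, all had every Sox1posGP library below every Baseline library, where 27.1% of all genes did, 2 higher and 5 lower were called in NSC and 1 higher and 6 lower in NR against Baseline, 1 higher and 4 lower in NR against NSC, 3 higher and 4 lower in Sox1posGP against NSC and 5 higher and 2 lower against NR. Erlin1 had the widest range of these, with means of 91.9 CPM in Baseline, 65.2 in Sox1posGP, 36.0 in NSC and 46.2 in NR. Of 12 genes of uptake, storage and transport, 4 higher and 8 lower were called in NSC and 4 higher and 7 lower in NR against Baseline, 2 higher and 5 lower in NR against NSC, 6 higher and 4 lower in Sox1posGP against NSC and 6 higher and 4 lower against NR. Vldlr, a lipoprotein receptor and a target of Mylip, had 221, 228 and 212 CPM in Baseline, 49.8, 51.8 and 46.7 CPM in Sox1posGP, 20.4, 16.3 and 22.9 CPM in NSC and 13.9, 12.55 and 14.6 CPM in NR, highest in Baseline as Mylip was. Of 22 further enzymes of fatty acids and glycerolipids, 8 higher and 13 lower were called in NSC and 5 higher and 11 lower in NR against Baseline, 9 higher and 10 lower in NR against NSC, 13 higher and 5 lower in Sox1posGP against NSC and 14 higher and 5 lower against NR. Thrsp, a regulator of lipid synthesis, stood at 108, 106 and 97.3 CPM in Baseline, 26.6, 23.7 and 25.9 CPM in Sox1posGP and below 1 CPM in every NSC and NR library. Of 5 LXR receptors and further targets, 1 higher and 2 lower were called in NSC and 1 higher and 2 lower in NR against Baseline, 2 higher and 1 lower in NR against NSC, 1 higher and 2 lower in Sox1posGP against NSC and 2 higher and 2 lower against NR, and Smpdl3a ranged from 44.3 CPM in Baseline to 2.82 CPM in NR. Of 12 fatty acid oxidation genes, 2 higher and 9 lower were called in NSC and 3 higher and 8 lower in NR against Baseline, 4 higher and 1 lower in NR against NSC, 8 higher and 4 lower in Sox1posGP against NSC and 7 higher and 5 lower against NR. In each Baseline and Sox1posGP library 11 of these 12 genes had a count. The remaining gene had enough counts to be tested only through the NSC and NR libraries, where it is high, so this tally is a description. Ppargc1a, a coactivator of oxidative genes, averaged 30.2 CPM in Baseline, 41.2 in Sox1posGP, 0.877 in NSC and 0.473 in NR. Between Sox1posGP and Baseline, the Sox1posGP libraries lay all above in 5 and all below in 1 of the 9 sterol and isoprenoid enzymes, 4 and 5 of the 12 uptake genes, 10 and 8 of the 22 fatty acid and glycerolipid enzymes, 1 and 1 of the 5 LXR genes and 1 and 8 of the 12 oxidation genes, where 25.7% and 27.1% of all genes did.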

How the data were processed

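The authors deposited 1 table of whole-number read counts per gene for 12 RNA-seq libraries (PicoPure RNA, SMART-Seq v4 cDNA, MicroPlex libraries), used as deposited. The submitters' notes name STAR 2.6, RSEM 1.1.14 and mouse build mm10 without the role of each, and the strand setting is not given in the sources used here. Ensembl identifiers took names and exon lengths from GENCODE M21 (45143 of 45706; unnamed ones hold 0.124% of counts). The 34 members and all lists were chosen with earlier results of these data known. Counts were filtered with filterByExpr, scaled by TMM and tested in R 4.3.3 with edgeR 4.0.16 (quasi-likelihood, 4 groups, 12 libraries, no block, limma 3.58.1 loaded) after tests on simulated data; DESeq2 1.42.0 was an alternative, beside other scalings, filters, thresholds, thinning, 2-group fits and each library left out. CPM use TMM-scaled totals. Tables and figures used Python 3.11.15 with matplotlib 3.10.9, and similar transcripts were found with BLAST 2.17.0 (500 bases or more at 95% identity or more). Same-numbered libraries deviated together between NR and NSC (correlations of 0.229, 0.49 and 0.296), so the numbers pair these groups; the link is from the data, not the labels. Named genes were all members, per-library values for 21 set members plus the widest and narrowest of each role list, Sox1, and the widest gene of each other list, 1 of which is not reported here.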

Additional observations from a re-analysis of the deposited data

How the results depend on the processing

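Of 170 member results (34 genes in 5 comparisons), 144 kept their side of an adjusted p of 0.1 under every alternative fit, and 130 of these also their sign. Stricter thresholds are not among these fits, and a fold change over 4 left far fewer calls, as given below. Of 3565 single values, 84 lost a call, 48 gained one and 1 gained a call with the sign opposite to the main value. The last was Acaca in Sox1posGP against NSC, not called in the main fit (-0.0050) and called higher without NSC replicate 1 (0.3889). Without NSC replicate 2 it was -0.2418 and not called. The replicate block, which gives same-numbered libraries of all groups a shared shift, changed 1 member call, that of Lss in NR against NSC. Correlations of same-numbered libraries outside NR and NSC ran from -0.0472 to 0.0619. The block therefore does not model the pairing of NR and NSC alone, and a fit with that pairing was not run. The fatty acid median in Sox1posGP against Baseline was 0.7587 with library totals and 0.7316 when every library had to hold at least 10 counts; in NR against Baseline that filter gave 0.3265, and 0.8156 for the sterol median. In NR against NSC the fatty acid median ran from -0.5871 without NSC replicate 2 to -0.3658 without NSC replicate 1. In Sox1posGP against NSC it was -0.0071 with no filter on low counts and ran from -0.0605 without NSC replicate 2 to 0.2857 without NSC replicate 1. The sterol median in Sox1posGP against NR was 1.0093 after thinning to the smallest total and ran from 0.8800 without NR replicate 1 to 1.0248 without NR replicate 2. Under that filter fewer genes were tested, and 8647 genes were called in NSC against Baseline, 8619 in NR against Baseline and 8310 in Sox1posGP against NR. With a fold change over 4 asked as well, members higher, members lower and all genes called were 3, 0 and 4315 in NSC against Baseline (Mvd, Acly and Abcg1), 2, 0 and 4773 in NR against Baseline (Mvd and Abcg1), 0, 0 and 1269 in NR against NSC, 2, 1 and 3848 in Sox1posGP against NSC (Fdps and Stard4 higher, Abcg1 lower) and 3, 1 and 4455 in Sox1posGP against NR (Fdps, Hsd17b7 and Stard4 higher, Abcg1 lower), with Abcg1 tested only through its NSC and NR counts. Except for fewer genes tested and the stricter fold, the cause of these changes was not tested. With 3 libraries a group, a floor of 3 counts lay between 0.0671 CPM (NSC 1) and 0.869 CPM (Sox1posGP 1), and Abcg1 was below it in every progenitor library.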
